A study of Mus musculus with 2 samples.

Results

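The genes described are those of the mitochondrial ribosomal proteins, taken as every probe set with a single platform gene symbol that starts with Mrpl or Mrps followed by a digit. They were 77 of 19937 named genes, read by 85 probe sets. Of the 77 genes 48 had Mrpl symbols, named for the large subunit, and 29 Mrps symbols, named for the small subunit. The choice used names and no measured value. Langerhans cells, dendritic-like cells that live among the keratinocytes of the skin, had been sorted for Langerin and Epcam from mice of 2 Il34 genotypes, 21 days after a 30 min exposure to ultraviolet light. Il34+/LacZ mice carry 1 LacZ allele and 1 working copy of Il34, which encodes a ligand of the CSF1 receptor, and Il34LacZ/LacZ mice carry the LacZ allele on both chromosomes. Mice of both groups were 8 to 12 weeks old, all had been irradiated, and all carried at least 1 LacZ allele, so neither a wild-type nor an unirradiated sample is part of the comparison. Each genotype was measured on 1 microarray (n = 1) from 2 ng of total RNA, and the labels do not say how many animals were pooled. No test between genotypes is possible, and every value below is a single measurement without replicate error.

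The mitochondrial ribosome translates the few messages of the mitochondrial genome, all of which encode membrane subunits of the respiratory chain and the ATP synthase. Its RNAs come from mitochondrial DNA, whereas all of its proteins are encoded in the nucleus, made in the cytosol and imported. Some of these proteins descend from the bacterial ribosome and others were added in mitochondria, and loss of single members is known to lower respiratory chain activity. Langerhans cells are long-lived and renew themselves in the epidermis, and CSF1 receptor signalling through IL-34 is known to maintain them.

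The promoters of many such genes carry sites for NRF1, for ETS factors such as GABP and for YY1, so the letters of these motifs were looked for on both strands of the RefSeq promoter windows (GRCm38.p6), each reaching from 250 bases before to 50 after the start site. Windows were found for 68 of the 77 genes, 74 windows in all. The NRF1-type letters, GCGCA, any base and GCGC, which share bases with their own reverse complement, were in 17.6% of these windows, against 6.38% of the 21262 windows of coding genes and 4.60% of all 32851 windows of the table. The ETS-type letters CCGGAAGT were in 16.2%, against 5.15% of coding and 3.89% of all windows. The YY1-type letters AAGATGGCG were in 10.8%, against 1.83% of coding and 1.40% of all windows. The motifs can share bases at their ends, and no motif lies within another. At least 1 of the 3 motifs was found for 31 of the 68 genes, and no gene held all 3. Such a match is a description of the letters only. Stretches of 30 bases follow for genes that hold a motif and lay furthest from others of their level in either direction. For each motif the genes below others of their level come first, and those above others of their level follow. Mrps24, in the latter group, still read lower as deposited, with 452.7 in Il34+/LacZ and 331.5 in Il34LacZ/LacZ. Mrpl27, also in that group, read 136.6 and 177.4 in the same order on its brighter probe set, but 116.7 and 106.1 on its other one. Each stretch is printed 5′ to 3′ on the strand of the gene, with the match to the motif or its reverse complement in capitals.
Mrpl44, NRF1-type, chr1:79775973-79776002, plus strand: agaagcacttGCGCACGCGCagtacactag
Mrpl30, NRF1-type, chr1:37890384-37890413, plus strand: tgacgccgctGCGCCTGCGCtgtcttctat
Mrpl32, NRF1-type, chr13:14613105-14613134, minus strand: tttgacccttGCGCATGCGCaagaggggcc
Mrpl14, NRF1-type, chr17:45686343-45686372, plus strand: aacccctggcGCGCAGGCGCagcgtgcggg
Mrps27, ETS-type, chr13:99344726-99344755, plus strand: gtggtaggaccACTTCCGGcggaggcgggc
Mrpl51, ETS-type, chr6:125192099-125192128, plus strand: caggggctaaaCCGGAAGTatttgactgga
Mrpl18, ETS-type, chr17:12916312-12916341, minus strand: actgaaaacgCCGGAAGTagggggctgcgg
Mrpl27, ETS-type, chr11:94653725-94653754, plus strand: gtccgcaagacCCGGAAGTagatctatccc
Mrps27, YY1-type, chr13:99344790-99344819, plus strand: ggtgcgctccAAGATGGCGgctcccatggt
Mrpl36, YY1-type, chr13:73330968-73330997, plus strand: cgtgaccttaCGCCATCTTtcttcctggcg
Mrps18a, YY1-type, chr17:46111005-46111034, plus strand: ggtgcgttccAAGATGGCGgccctcagggc
Mrps24, YY1-type, chr11:5707652-5707681, minus strand: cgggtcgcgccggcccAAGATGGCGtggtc

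Genes with and without each motif overlapped in their differences between the arrays. Here and below a difference is log2(intensity + 16) of Il34LacZ/LacZ minus that of Il34+/LacZ, and folds come from the same sum, which makes them too small for dim genes. Genes entered when their brighter reading was not under 48.7 intensity units, the median reading of both arrays pooled, called the floor. The median difference was -0.17 for the 12 measured genes with the NRF1-type letters and -0.30 for the 54 without. It was -0.41 for the 12 genes with the ETS-type letters against -0.27, and -0.65 for the 8 with the YY1-type letters against -0.27. The 8 genes of the last group ranged on either side of 0.

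Most mitochondrial ribosomal protein genes read lower in Il34LacZ/LacZ, and so did most other genes of their level. Of the 77 genes 75 reached the floor, and the other 2, Mrpl45 and Mrps31, did not on either array. Mrpl50, Mrpl44 and Mrps27 reached it only in Il34+/LacZ and so could only read lower. Among the 75 genes 51 read lower and 24 higher, with a median difference of -0.28 against -0.16 for all 12843 genes at or above the floor. At least 2-fold lower were 8 of the 75, or 10.7%, against 13.2% of all genes, and none was at least 2-fold higher, against 2.57% of all genes. At the smaller threshold of 1.5-fold 21 were lower, or 28.0% against 29.9%, and 3 higher, or 4.0% against 16% of all genes. Mrpl44 and Mrps27 are among the 21, although against the floor each was at least 1.35-fold lower. The share that read lower was near the background at both thresholds. With quantile normalization of the arrays the split was 3 at least 2-fold lower and 4 at least 2-fold higher, and the median was -0.0011 against 0.03 for all genes.

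The arrays differed in a way that depended on level, so the genes were set against others of the same level. Between 112 and 240 intensity units the 40 mitochondrial ribosomal protein genes had a median difference of -0.23, and the 3431 other genes one of -0.44. In that band 7.5% of the former and 18.4% of the latter were at least 2-fold lower. Between 240 and 496 units the medians were -0.45 for 19 genes and -0.66 for 1595 others, with 15.8% and 28.4% at least 2-fold lower. Between 48 and 112 units the order turned round, with -0.30 for 14 genes and 0.18 for 5516 others. Of those 14 genes 3 are the ones that could only read lower, Mrpl50, Mrpl44 and Mrps27. The others reached the floor on both arrays, and all but Mrps11, with a difference of 0.18, read lower. The median without the 3 genes was not computed. Between 496 and 1008 units only 2 genes were present, with a median of -0.86 against -0.64 for 591 others.

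A loess trend of the difference on level was then subtracted, so that 0 stands for the course of genes at that level. The median of the 75 genes became 0.07 against 0.03 for all genes, but it differed by band. Between 48 and 112 units it was -0.40 for 14 genes, against 0.02 for the others of the band. From 112 to 240 units it was 0.21 for 40 genes against -0.03, and from 240 to 496 units 0.16 for 19 against -0.06. The 2 genes above 496 units had -0.24 against -0.03. At least 2-fold higher were 5 of the 75 genes, or 6.67% against 4.14%, and at least 2-fold lower 3 genes, or 4.0% against 7.05%. The 3 were Mrpl50, Mrpl11 and Mrps27, of which Mrpl50 and Mrps27 had reached the floor only in Il34+/LacZ, and 2 were left when values below the floor were set to it. At 1.5-fold 19 genes were higher, or 25.3% against 13.9%, and 11 lower, or 14.7% against 18.6%. The error that can be had from these data is the disagreement between probe sets of the same gene. Its SD, of differences as deposited, was 0.63 over 614 genes, or 1.55-fold. It covers probe noise and isoforms, and the trend where probe sets of a gene differ in level, but neither animals nor sorts. It was not computed with the trend removed, and the same SD is used for both measures. With the trend removed 15 of the 75 genes lay beyond that SD upward and 10 downward, 33.3% in all against 28.9% of all genes.

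**Figure D1:**
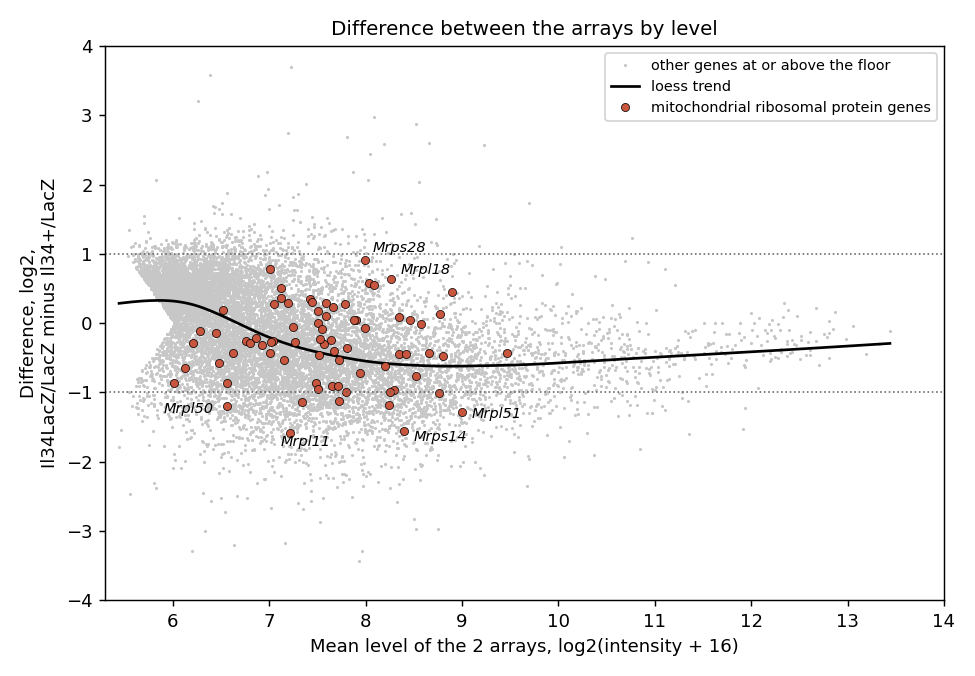
Difference between the arrays (log2, Il34LacZ/LacZ minus Il34+/LacZ) against the mean level of each gene, log2(intensity + 16). Red points are the 75 mitochondrial ribosomal protein genes at or above the floor, grey points the other genes, the black line the loess trend and the dotted lines 2-fold differences. The red points spread on both sides of the trend, from Mrpl11 at -1.58 to Mrps28 at 0.91.

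With the trend removed the members had an SD of 0.62, beside 0.64 for all genes. As deposited it was 0.56 for the members and 0.72 for all genes, beside 0.63 for probe sets of the same gene. As deposited, the spread of the members was thus no wider than probe set disagreement. With the trend removed the 53 cytosolic ribosomal protein genes had an SD of 0.33, at a median Il34+/LacZ intensity of 4231 against 198.5 for the family. The part of level in this was not tested. The cytosolic genes had a median difference of -0.29, beside -0.28 for the mitochondrial family. The 47 Mrpl genes at or above the floor had a median of -0.35 with 7 at least 2-fold lower, or 14.9%, near the 13.2% of all genes. The 28 Mrps genes had a median of -0.16 with 1 at least 2-fold lower, or 3.57%. With the trend removed both medians were small, 0.07 and 0.08. Symbols do not always give the place in the ribosome. With Mrps18a and Mrps30 counted in the large subunit and Mrps36 left out, the medians as deposited lay closer together. They were -0.31 for 49 large subunit genes and -0.27 for 25 small subunit genes. At least 2-fold lower were 14.3% and 4.0% of these.

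**Figure D2:**
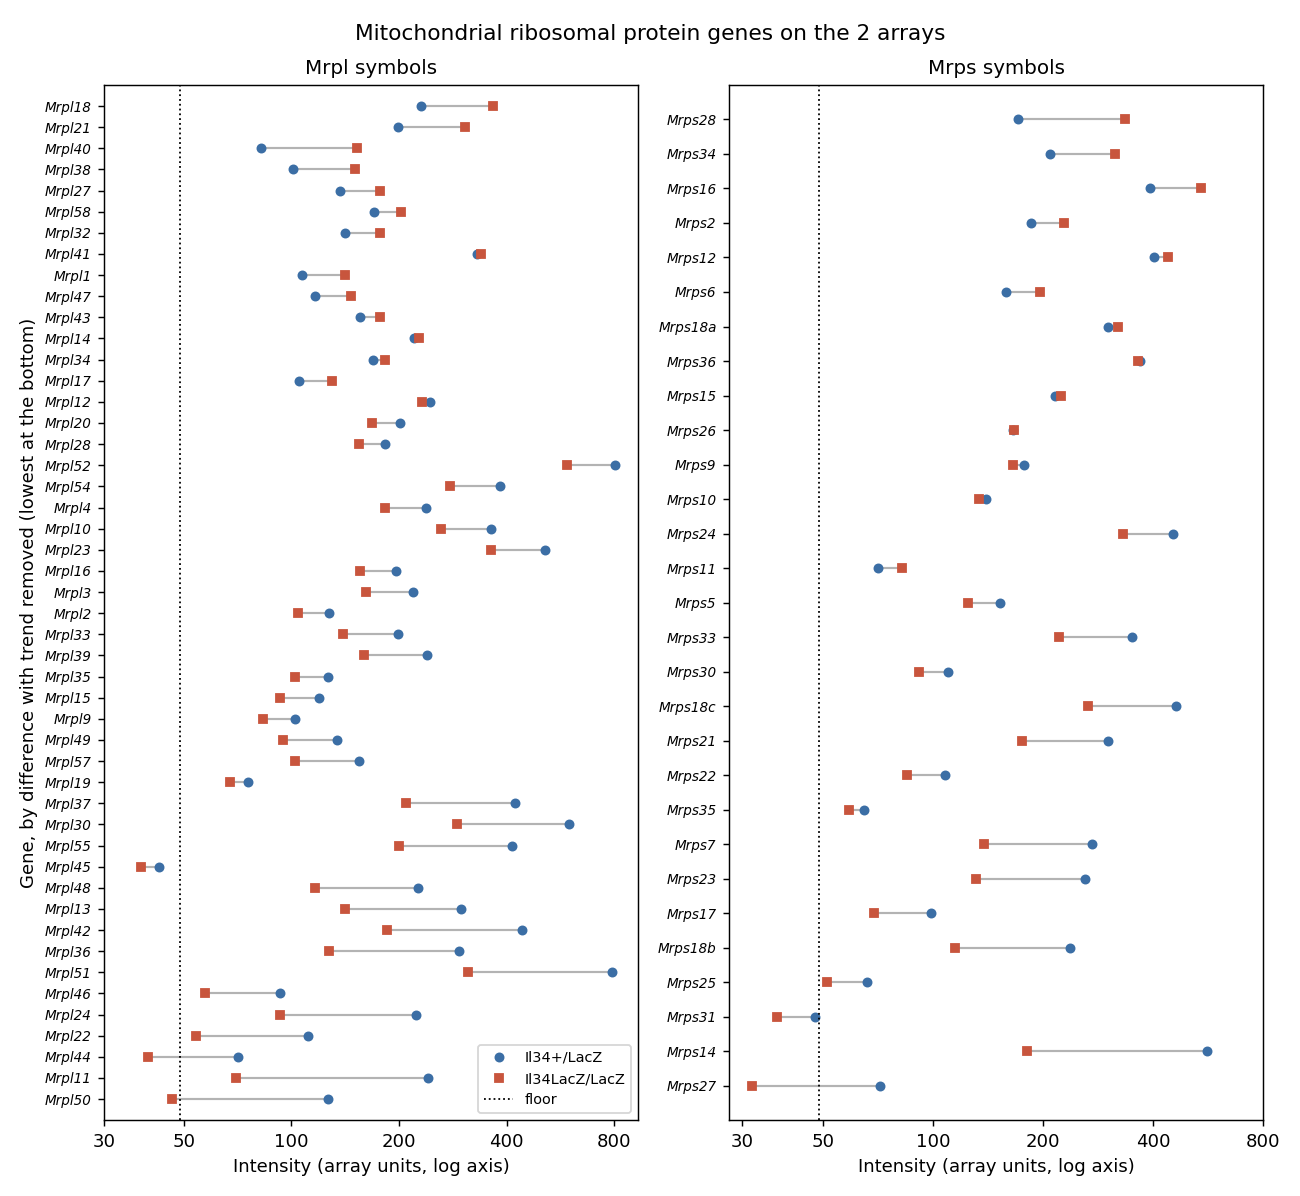
Intensity (array units, log axis) of all 77 mitochondrial ribosomal protein genes on the Il34+/LacZ array (blue circles) and the Il34LacZ/LacZ array (red squares), 1 array each, with Mrpl symbols on the left and Mrps symbols on the right. Genes are ordered by the difference with the trend removed, so genes at the bottom (Mrpl50, Mrps27) read lowest in Il34LacZ/LacZ for their level and those at the top (Mrpl18, Mrps28) highest. The dotted line is the floor of 48.7.

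The stalk of the large subunit, which recruits the translation factors, held the gene with the lowest difference of the family. Mrpl11, the protein at the base of the stalk, had an intensity of 241.8 in Il34+/LacZ against 70.2 in Il34LacZ/LacZ, 2.99-fold lower. Further pairs of intensities are given in that order. With the trend removed its difference was -1.27, at the 2.20 percentile of the 500 genes nearest in level. Mrpl10, on which the stalk is built, read 363.0 and 262.1, and its difference of -0.45 became 0.15 with the trend removed and 0.05 with quantile normalization. Mrpl12, which forms the flexible arms and also binds the mitochondrial RNA polymerase, read 244.4 and 231.9, and its difference of -0.07 became 0.48 with the trend removed and 0.37 with quantile normalization. The stalk genes thus ran from -1.58 to -0.07 as deposited, a span that rests on Mrpl11. The differences of Mrpl10 and Mrpl12 lay within the probe set SD.

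Genes of proteins that line or surround the exit tunnel of the nascent chain lay on both sides of 0, and those furthest from it were lower. Mrpl24 read 223.5 and 93.3, 2.19-fold lower, with -0.77 once the trend was removed. Mrpl22 read 111.5 and 54.2, 1.82-fold lower, with -0.93 once the trend was removed. Both lay beyond the probe set SD by either measure. Mrpl44, which carries a domain of the ribonuclease III family, read 71.1 and 39.7, and the lower value is below the floor, so it was at least 1.35-fold lower. Mrpl4 read 237.9 and 182.8, and its difference of -0.35 became 0.15 with the trend removed. Mrpl23 and Mrpl47, beside the tunnel exit, differed by -0.48 and 0.30. Mrpl17 ran the other way, with 104.8 and 129.8, and was 0.51 with the trend removed. Mrpl45, which anchors the ribosome to the inner membrane, read 42.7 and 37.9 and was not used.

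Around the catalytic centre of the large subunit Mrpl2 read 127.6 and 104.5, Mrpl3 218.3 and 161.9 and Mrpl16 195.8 and 155.3. With the trend removed these genes differed by -0.03, 0.07 and 0.14, within the probe set SD. Mrpl27, whose bacterial counterpart reaches into the catalytic centre, read 136.6 and 177.4 on its brighter probe set, 0.74 with the trend removed, which is beyond it. That probe set is numbered among genes of another chromosome. On the probe set numbered with its own chromosome Mrpl27 differed by -0.12, and by 0.08 with the trend removed.

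The central protuberance, the crown of the large subunit, was divided. Mrpl18, whose bacterial counterpart binds the 5S ribosomal RNA, read 230.8 and 367.3, 1.55-fold higher, and 1.22 with the trend removed (96.4 percentile). Mrpl40 read 82.2 and 153.1, 1.72-fold higher, and Mrpl38 101.0 and 151.0, 1.43-fold higher. Mrpl58, a release factor-like peptidyl-tRNA hydrolase that became part of the ribosome, read 169.9 and 203.2 and was 0.70 with the trend removed. Against these, Mrpl46 read 93.2 and 57.5 (-0.69 with the trend removed), Mrpl48 225.9 and 116.7 (-0.45) and Mrpl55 414.1 and 199.6 (-0.41). The first 4 genes thus read higher and the last 3 lower in the same structure, by amounts up to and beyond the probe set SD.

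Other large subunit genes with a bacterial counterpart lay at both ends. Mrpl21 read 198.5 and 305.4, 1.5-fold higher, and 1.14 with the trend removed. Mrpl36 read 295.3 and 127.4, 2.17-fold lower, and -0.64 with the trend removed. Mrpl30 read 598.3 and 290.3, 2.01-fold lower, but only -0.38 with the trend removed. Mrpl13 read 297.5 and 141.6, just inside the 2-fold threshold with a difference of -0.99. Mrpl32, which the m-AAA protease trims before the ribosome is assembled, read 141.1 and 177.6 and was 0.70 with the trend removed, and Mrpl1 and Mrpl14 were 0.63 and 0.57.

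Of the 28 mitochondria-specific genes that reached the floor, 3 were at least 2-fold lower, or 10.7% against 13.2% of all genes, and none higher. All 3 were large subunit genes. Mrpl50 read 126.8 and 46.3, at least 2.21-fold lower because the dimmer value is below the floor. Mrpl42 read 440.5 and 185.5, 2.27-fold lower, and -0.59 with the trend removed. Mrpl51 read 786.3 and 312.3, 2.44-fold lower, and -0.67 with the trend removed. Mrpl37, a further such protein, read 422.7 and 208.7, 1.95-fold lower. Mrpl52 and Mrpl54 differed by -0.43 and -0.45, and by 0.18 and 0.16 with the trend removed, and Mrpl43 and Mrpl41 were 0.59 and 0.65.

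In the small subunit the genes of the decoding site and of the channel of the message ranged on both sides of 0. Mrps12, the protein of the decoding site, read 402.6 and 440.3, and its difference of 0.12 became 0.75 with the trend removed, but -0.02 when both arrays were centred on their medians. Mrps28, placed near the exit of the message channel, read 170.7 and 334.1, 1.87-fold higher, and 1.46 with the trend removed (97.0 percentile), the highest of the family by both measures. Mrps24 and Mrps5, of the channel entrance, had differences of -0.43 and -0.27, and of 0.19 and 0.07 with the trend removed. Mrps2 read 185.5 and 227.4, 0.77 with the trend removed. So only Mrps28 of these genes passed 1.5-fold as deposited.

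Among genes of the head of the small subunit Mrps14 read 562.3 and 180.8, 2.94-fold lower, and -0.95 with the trend removed (5.80 percentile), the only Mrps gene at least 2-fold lower as deposited. Mrps7, which nucleates the head, read 272.5 and 137.4, 1.88-fold lower, and -0.43 with the trend removed. Mrps9 and Mrps10, also of the head, differed by -0.09 and -0.06, and were 0.35 and 0.27 with the trend removed. In the body and platform Mrps16, in which mutations cause a human respiratory chain deficiency, read 391.4 and 541.9, 1.37-fold higher, and 1.08 with the trend removed. Mrps6 read 158.1 and 196.6, and was 0.73 with the trend removed, whereas Mrps17 read 98.9 and 69.0 (-0.46 with the trend removed) and Mrps21 300.7 and 175.4 (-0.19).

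The mitochondria-specific proteins of the small subunit also split. Mrps34 read 208.2 and 313.6, 1.47-fold higher, and 1.12 with the trend removed. Mrps27, a protein with pentatricopeptide repeats, read 71.5 and 31.9, at least 1.35-fold lower, and -1.19 with the trend removed on its measured value. Mrps23 read 260.4 and 131.3, 1.88-fold lower, and Mrps26 165.2 and 166.0. Mrps22, Mrps25 and Mrps35 differed by -0.29, -0.28 and -0.11, all within the probe set SD.

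The 3 Mrps18 paralogs sit in different places of the ribosome and read differently. Mrps18a, which is part of the large subunit despite its symbol, read 300.9 and 320.6, and its difference of 0.09 became 0.68 with the trend removed, but -0.06 when both arrays were centred on their medians. Mrps18b, a small subunit protein that does not take the place of the bacterial one, read 236.5 and 115.0, 1.93-fold lower, and -0.53 with the trend removed. Mrps18c, the counterpart of the bacterial protein, read 461.8 and 265.4, 1.70-fold lower, and -0.15 with the trend removed. Mrps30, also a large subunit protein despite its symbol, read 109.6 and 91.7. Mrps36 has since been placed in the oxoglutarate dehydrogenase complex, and it read 367.6 and 363.8, a difference of -0.01 that was 0.52 with quantile normalization.

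Members whose protein name marks a bacterial counterpart had a higher median than those named as mitochondria-specific. The classes follow these names only. Mrps18a and Mrps18b, paralogs of Mrps18c, count as mitochondria-specific by them. The 46 genes with a counterpart had a median difference of -0.25 as deposited and 0.15 with the trend removed, where 28 lay above 0. The 28 mitochondria-specific genes at or above the floor had medians of -0.44 and -0.22, and 10 lay above 0. At least 1.5-fold lower as deposited were 23.9% of the former and 35.7% of the latter, against 29.9% of all genes. Mrpl50, Mrpl44 and Mrps27, which reached the floor only in Il34+/LacZ and could only read lower, are all among the mitochondria-specific genes. The floor decided only which genes entered and altered no difference. The 2 members it left out, Mrpl45 and Mrps31, are mitochondria-specific too, with -0.45 and -0.57 once the trend was subtracted. All 46 genes with a counterpart reached the floor on both arrays. How the floor bears on the medians was not tested. The quartiles overlapped, from -0.20 to 0.57 and from -0.53 to 0.47 with the trend removed. The median Il34+/LacZ intensity was 198.6 and 167.6 in the same order. Neither the difference between the groups nor the part of level in it was tested.

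**Figure D3:**
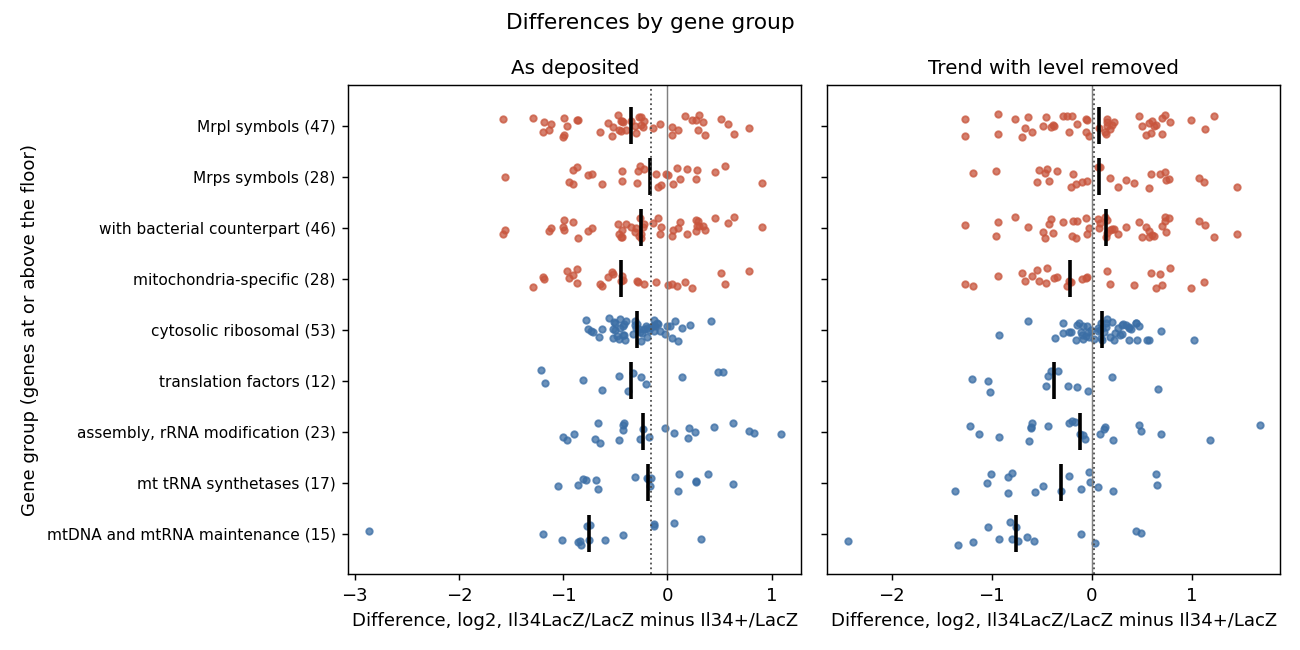
Difference (log2, Il34LacZ/LacZ minus Il34+/LacZ) of each gene at or above the floor, as deposited on the left and with the trend removed on the right. Red points are mitochondrial ribosomal protein genes, shown by symbol and again by whether the protein name marks a bacterial counterpart. Blue points are other lists, black bars medians and the dotted line the median of all genes, and numbers in brackets count genes. The cytosolic genes, with a median Il34+/LacZ intensity of 4231 against 198.5, have an SD of 0.33 against 0.62 for the mitochondrial ones with the trend removed, and the list of mitochondrial DNA and RNA maintenance lies lowest with a median of -0.75 as deposited.

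For 8 genes 2 probe sets were present, and their agreement varied. Probe sets of this platform are numbered mostly along the genome: of 21131 with neighbours in number from a single chromosome, 97.4% named a gene of that chromosome. For 5 of the 77 genes the brighter or only probe set was numbered among genes of another chromosome (Mrpl27, Mrpl41, Mrpl48, Mrpl51 and Mrps33). Mrpl51 read 786.3 and 312.3 on that probe set, and 61.5 and 29.6 on the probe set numbered with its own chromosome, differences of -1.29 and -0.76. Mrpl27 read 136.6 and 177.4 on the former and 116.7 and 106.1 on the latter, so the sign of its difference turned from 0.34 to -0.12. Mrps33 read 349.4 and 220.7 on the former but 24.3 and 19.7, below the floor, on the latter. Mrpl41 differed by 0.04 and 0.31, the former turning to -0.11 when both arrays were centred on their medians. Mrpl23 differed by -0.48 and -0.75, the former turning to 0.08 with quantile normalization. Mrps5 differed by -0.27 (0.02 with quantile normalization) and -0.46, Mrpl47 by 0.30 and, below the floor, -0.07, and Mrps36 by -0.01 and 0.41. What each probe set of these genes hybridises with was not tested.

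**Figure D4:**
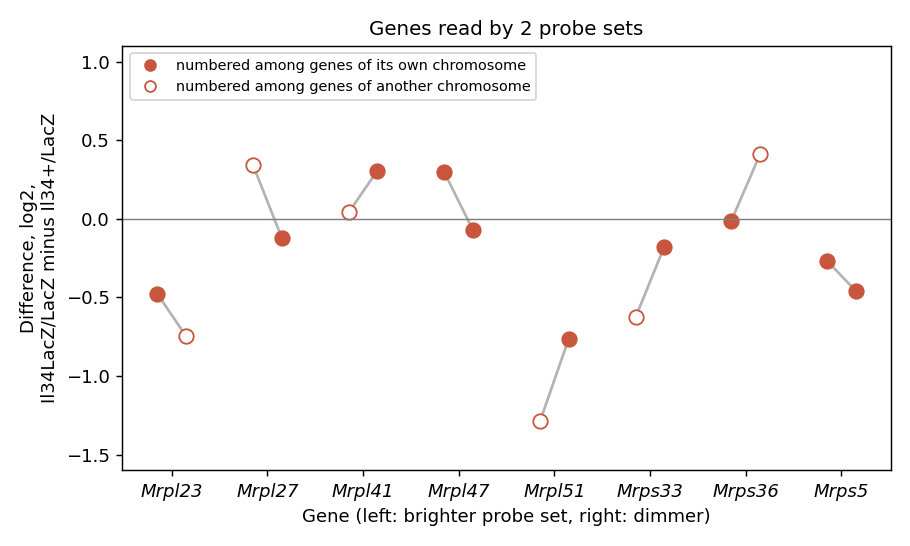
Difference (log2, Il34LacZ/LacZ minus Il34+/LacZ) of the 2 probe sets of each of 8 genes, the brighter on the left of each pair. Filled points are numbered among genes of the same chromosome as the named gene, and open points among genes of another chromosome. The pair of Mrpl27 lies on both sides of 0 (0.34 and -0.12), and the pair of Mrpl51 lies below it (-1.29 and -0.76).

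Mitoribosomal proteins with other symbols differed little. Chchd1 of the small subunit read 116.7 and 95.0, and Dap3, a GTP-binding protein of the small subunit, 73.4 and 53.9. Gadd45gip1 of the large subunit read 110.7 and 96.4, and Ptcd3, which meets the message at the channel entrance, stayed below the floor with 41.9 and 43.6. The 3 that reached the floor all read lower, by less than 1.5-fold.

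Among the 12 translation factors bright enough 2 were at least 2-fold lower, or 16.7% against 13.2% of all genes, and none higher, with medians of -0.35 as deposited and -0.37 with the trend removed. Tufm, the elongation factor that brings aminoacyl-tRNA, read 172.5 and 65.3, 2.32-fold lower, and Mtif2, the initiation factor, 134.8 and 50.6, 2.26-fold lower. Gfm2, a ribosome recycling factor, read 91.1 and 45.1, at least 1.65-fold lower, and Oxa1l, the insertase at the tunnel exit, 196.2 and 121.3, 1.55-fold lower. By contrast Tsfm, the exchange factor of Tufm, read 82.6 and 126.2 and was 0.67 with the trend removed. The other initiation factor, Mtif3, and the elongation factor Gfm1 differed by -0.20 and -0.38.

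Of 23 genes for ribosome assembly and ribosomal RNA modification 1 was at least 2-fold higher, or 4.35% against 2.57% of all genes. Another, Gtpbp10, was past 2-fold lower on its measured values but not against the floor. The median of the list was -0.24, and -0.12 with the trend removed. Malsu1, which binds the large subunit during assembly, read 204.7 and 453.2, and its difference of 1.09 became 1.68 with the trend removed. Gtpbp10, an assembly GTPase, read 110.6 and 47.0, at least 1.96-fold lower, and Afg3l2, a subunit of the m-AAA protease, 131.8 and 59.7, 1.95-fold lower. Fastkd2, which binds the large ribosomal RNA, read 54.5 and 21.9, at least 1.09-fold lower.

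Aminoacyl-tRNA synthetases of mitochondria were mostly dim, and 17 of 19 measured genes reached the floor. Their medians were -0.19 as deposited and -0.31 with the trend removed, and none was at least 2-fold higher. Nars2, Rars2, Yars2 and Qrsl1 reached the floor only in Il34+/LacZ and so could only read lower, whereas Wars2 could only read higher. Only Yars2, for tyrosine, was past 2-fold lower on its measured values of 56.2 and 18.8 (5.88% against 13.2% of all genes), and against the floor it was at least 1.12-fold lower. Hars2, for histidine, read 130.6 and 64.7, 1.82-fold lower, and Fars2, for phenylalanine, 109.0 and 56.9, 1.71-fold lower. The amidotransferase subunit Qrsl1 read 86.7 and 42.7, at least 1.59-fold lower.

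The genes that keep and transcribe mitochondrial DNA, and hold its RNA, had the lowest median of these lists. Among the 15 bright enough 10 were at least 1.5-fold lower, or 66.7% against 29.9% of all genes, and none higher, against 16%. The median was -0.75, and -0.76 with the trend removed. Of the 10 genes 3 had reached the floor only in Il34+/LacZ, and against the floor Tfb2m was at least 1.32-fold, Twnk at least 1.42-fold and Prorp at least 1.21-fold lower. Slirp, which stabilises mitochondrial messages, read 482.7 and 52.5, 7.29-fold lower, and its partner Lrpprc 127.1 and 63.9, 1.79-fold lower. Ssbp1, the mitochondrial single-strand DNA-binding protein, read 139.0 and 51.9, 2.28-fold lower. Tfb2m, a transcription factor of mitochondria, read 69.6 and 26.6, and Pnpt1, an RNA-degrading phosphorylase, 136.3 and 68.0, 1.81-fold lower. The RNA polymerase Polrmt, named after its values were seen, read 149.0 and 156.0. How far this list differs from the ribosomal proteins was not tested.

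Nuclear factors known to drive genes of mitochondria showed no difference of 2-fold. Of 8 at or above the floor Myc read 700.2 and 367.1, 1.87-fold lower, Yy1 516.9 and 285.4, 1.77-fold lower, and Esrra 86.4 and 148.9, 1.61-fold higher. Ppargc1b, a coactivator, read 80.1 and 58.4. Gabpa, an ETS factor, differed by -0.35, and Nrf1 by -0.19, near the floor. Myc and Yy1 differed by -0.28 and -0.21 with the trend removed.

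The sorted cells carried the markers of their label. Markers of several other cells moved between the arrays, whereas T cell genes were bright on both and moved less. All 14 Langerhans cell genes listed were at or above the floor, among them Cd207, which encodes Langerin, with 3153.0 and 1852.0, and their summed intensity was 40639 and 32757. Keratinocyte genes at or above the floor, 17 of 21 measured, summed to 5535 and 1269, and macrophage genes (9 of 12) to 2932 and 4487. Neutrophil genes (7 of 10) summed to 334.3 and 1570, with Ly6g, Ltf and Retnlg below the floor on both arrays. Of these 7 genes 5 reached the floor only in Il34LacZ/LacZ and so could only read higher. The others were S100a8, with 71.9 and 552.1, and S100a9, with 103.2 and 698.6. Among keratinocyte genes Krt1, Dsc3 and Itga6 could only read lower, and Krt17 and Krt6a only higher. The 5 measured T cell genes summed to 7054 and 6225, with Cd3e at 1245 and 1250, and none differed by 1.5-fold. The dimmest of the 5, Cd3d, read 743.9 and 537.3, beside 632.9 and 707.7 for Epcam. Fibroblast genes (4 of 7) summed to 271.5 and 407.2. Cell cycle genes, whose activity is known to go with ribosome production, had a median difference of -0.85 (19 genes), which was -0.37 once the trend was subtracted. The part of other cells and of cell division in the values above was not tested. In a sorted population fewer cells of a type and less RNA per cell cannot be told apart.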

How the data were processed

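For every probe set the authors deposited a linear intensity from either array. How the probes were summarised, corrected for background and scaled was not given in the sources used here. Of 34760 probe sets, 21640 had 1 gene symbol in the platform annotation, 1321 several and 11799 none, and only the first were named. The gene number of all 77 members matched the RefSeq table of GRCm38.p6. Where a gene had several probe sets, the brightest by the mean of both arrays stood for it, and values were transformed as log2(intensity + 16). The loess trend was fitted to all probe sets with 1 symbol (fraction 0.3). Where a value lay below the floor, folds were computed against the floor.

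Named members were the 10 furthest from the trend in each direction, those with more than 1 probe set, those below the floor, Mrps18a, Mrps18b, Mrps18c, Mrpl10, Mrpl12, Mrps12, Mrpl58 and Mrps36. Further members were named for their place in the ribosome after their values were seen. From each other list up to 4 genes with the largest difference were named, with Slirp and Lrpprc, and Tsfm, Mtif3, Gfm1, Twnk, Prorp, Polrmt, Nrf1 and Gabpa were added after their values were seen. The members and lists were chosen with earlier results of these data known.

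No test between genotypes was made, as each has 1 array, and the number of arrays limits the precision. The trend removal was checked on simulated arrays, with noise set to the probe set SD. Genes changed 4-fold were all drawn from mean levels above 112 units, and 96.5% of them passed 2-fold in the right direction. Dimmer genes, such as Mrpl50 and Mrps27, are not covered by that share. The noise SD of 0.63 was near the SD of 0.64 that all measured genes had with the trend removed. Of unchanged genes 13.6% passed 2-fold in either direction, beside 4.14% higher and 7.05% lower among all measured genes. Passing 2-fold therefore does not show a change. Alternatives changed the floor, the probe set, the pseudocount, the scaling and the loess fraction. Python 3.11.15, numpy 2.4.6, pandas 2.3.3, statsmodels 0.14.6 and matplotlib 3.10.9 were used.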

Additional observations from a re-analysis of the deposited data

How the results depend on the processing

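With a pseudocount of 1 the members at least 2-fold lower numbered 14 as deposited (18.7% against 16.5% of all genes) and 6 with the trend removed, and with one of 64 they numbered 4 and 0, with 2 higher once the trend was removed. With each array centred on its median, 17 were at least 2-fold lower as deposited (22.4% against 18.6% of all genes), so under both settings, and with no floor (10.4% against 8.56%), the share lay above that of all genes, and the median was -0.43, with that of all genes moving from -0.16 to -0.33. With quantile normalization 3 were lower and 4 higher as deposited, and the median was -0.0011. With the floor at the 75th percentile 61 members were left, 1 was at least 2-fold lower with the trend removed, and the trend-removed median was 0.18, against -0.07 for all genes. That median was -0.03 with the mean of all probe sets or with the dimmest. The cause of these shifts was not tested. The counts moved by no more than 1.5 times with no floor, with the mean of all probe sets or with the dimmest, with loess fractions of 0.1 and 0.6, and under 2 alternatives chosen after the data were seen: the probe set numbered with its own chromosome, and values below the floor set to it. The trend-removed differences of the 10 members furthest up and the 10 furthest down kept their sign in all 12 alternatives, which for genes with 1 probe set include some that cannot alter them. Mrpl27 dropped to 0.08 on its other probe set, Mrps5 to -0.61, and Mrpl47 to -0.16 with the mean and -0.31 with the dimmest. No paired analysis was possible because each genotype has 1 array. Below about 50 intensity units a reading is near the middle of all probe sets, and detection calls were not analysed here.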

Other observations

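Mrpl53 was read only by a probe set that also names Ccdc142, with 106.6 and 122.0, so neither gene can be told apart there.

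Some deposited values share an unusual decimal. On the Il34+/LacZ array 633 probe sets, and on the Il34LacZ/LacZ array 674, held a multiple of 0.5 plus 0.312 (within 0.0001), and 569 did so on both. Among them were the probe sets used here for Mrpl16, Mrpl17, Mrpl18, Mrpl30 and Mrpl51.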
